A study of Mus musculus with 6 samples.

Results

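The genes described here encode 9 chemokine receptors, a small family of membrane proteins through which cells sense or remove chemokines. The family members studied are the leukocyte receptors Ccr1, Ccr2, Cx3cr1, Cxcr4 and Cxcr2 and the atypical receptors Ackr1, Ackr2, Ackr3 and Ackr4. They were taken by gene symbol from a deposited table of 22027 protein-coding genes, and all 9 were found. Ccr1 and Ccr2 were chosen on their difference between injured and sham livers in these same libraries, and the other 7 joined them as relatives, so the differences of all 9 between those groups are given as a description.

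Chemokines are small secreted proteins that bind to matrix and form gradients. The conventional receptors couple to inhibitory G proteins and steer leukocytes along these gradients, whereas the atypical receptors bind chemokines without that coupling and mostly take them up for breakdown. In liver, Ccr2 is best known for bringing monocytes from blood into injured tissue, and Ackr2 is known as a scavenger of inflammatory CC chemokines on lymphatic endothelium.

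RNA was sequenced after ribosomal RNA depletion from cells labelled as liver lymphatic endothelium. They were sorted from mice with a green fluorescent reporter of the Il7 gene, and the table's column names mark them as positive for the fluorescent protein. The sham surgery group had 3 libraries, and so had the group taken on day 3 following hepatic ischemia and reperfusion (I/R), in which blood supply is stopped and restored. The labels name no other allele or agent and no animal age, sham time or pooling, and since they tie no library to a separate animal, every spread below is a spread between libraries. Values are the authors' normalised counts, in which every value of a library is a whole multiple of that library's lowest positive value. Read as counts, these multiples gave totals of 6297308 to 17086746 per library. I/R library 1 had the lowest total but the most genes above 0 (17157), and I/R library 2 had the highest total with 14322. The reason was not tested.

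The libraries held lymphatic transcripts together with abundant transcripts of liver macrophages and hepatocytes. All 12 lymphatic markers were detected in every library, with a summed level of 9384 to 32870 in sham and 29900 to 48880 in I/R libraries, and all 12 were lowest in sham library 3. A list of 12 Kupffer cell markers, genes of the resident liver macrophage, summed to 157000 to 183400 in sham and 108400 to 180900 in I/R libraries. The 8 hepatocyte markers summed to 38690 to 68380 in sham and 42780 to 56430 in I/R libraries. The pan-leukocyte gene Ptprc lay between 6501 and 8715 in sham and between 5983 and 7184 in I/R libraries. In such mixed RNA, more cells of a type and more RNA per cell cannot be told apart.

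Ccr2 encodes the receptor of Ccl2, Ccl7 and Ccl12 on inflammatory monocytes. Its normalised counts were 44.0, 69.8 and 83.6 in sham libraries 1, 2 and 3, and 307.3, 429.2 and 237.5 in I/R libraries 1, 2 and 3. Every I/R library was above every sham library, and the mean went from 65.8 ± 20.1 to 324.7 ± 97.1 (SD, n = 3 each), a ratio of 4.93. The log2 fold change was 2.29 (SE 0.35, 95% interval 1.52 to 3.06). In recovered counts these levels rest on 27, 105 and 70 counts in sham libraries, against 202, 705 and 305 in I/R libraries. In sham, Ccr2 was therefore measured from few counts.

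Ccr1 encodes a receptor for Ccl3, Ccl5, Ccl6, Ccl7 and Ccl9 on monocytes, macrophages and other myeloid cells. Its normalised counts were 195.5, 108.4 and 83.6 in sham libraries, against 588.8, 592.4 and 404.1 in I/R libraries. Here too the groups did not overlap, with means of 129.2 ± 58.8 and 528.4 ± 108 (SD, n = 3 each) and a ratio of 4.09. The log2 fold change was 2.09 (SE 0.33, 95% interval 1.36 to 2.83). Sham library 1 had the highest sham value of Ccr1 and the lowest of Ccr2. Without that library the fold change was 2.44 for Ccr1 and 2.03 for Ccr2.

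**Figure D1:**
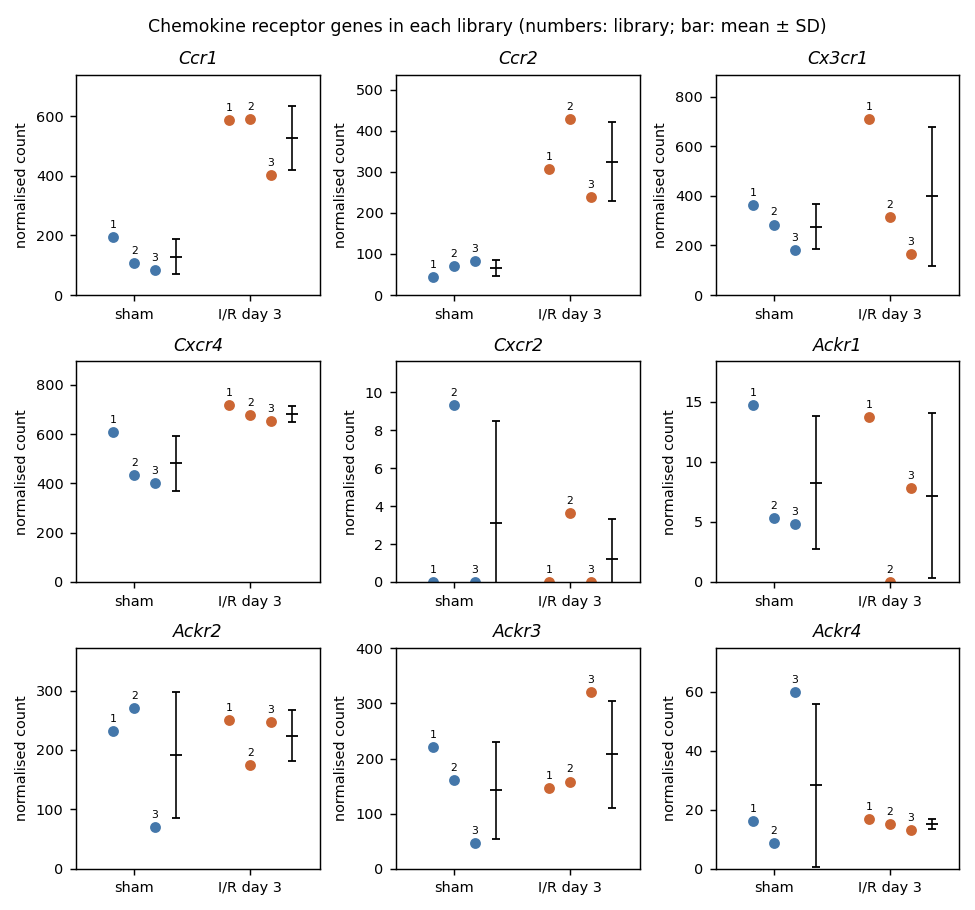
Normalised counts (vertical axes, linear and from 0, a scale of its own for each gene) of the 9 receptor genes in 3 sham and 3 I/R libraries, 1 point per library numbered by replicate, with the mean and SD beside each group (bars are cut at 0). For Ccr1, Ccr2 and Cxcr4 the lowest I/R point lay above the highest sham point, and the other 6 genes overlapped between the groups.

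In the limma fit over 13434 genes, 0 of the 7 members above the filter on low values passed an adjusted p of 0.05, beside 0.0298% of all tested genes. The smallest adjusted p was 0.115, for both Ccr1 and Ccr2, while 3 members were at an unadjusted p under 0.05, as were 596 (4.44%) of all 13434 tested genes, the background for such counts in the lists below. On the recovered counts edgeR called 0 of the 7, beside 0.00744% of all genes, with an adjusted p of 0.141 for Ccr2 and 0.201 for Ccr1. DESeq2 called Ccr1 and Ccr2 higher (adjusted p = 2.54e-05 and 1.05e-05), beside 0.21% of the 16662 genes it tested. Without sham library 1 limma called Ccr1 (adjusted p = 0.0137) and not Ccr2 (0.0614), and with any other library left out it called neither. Because this contrast chose the members, nothing further is read from these calls.

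No overlap between the groups, with the I/R libraries higher, was seen for 3 members, namely Ccr1, Ccr2 and Cxcr4, and for 5.11% of all tested genes. The opposite, with every I/R library lower, was seen for 0 members and 4.48% of all tested genes. The median log2 fold change of the 7 tested members was 0.53 beside 0.017 over all tested genes.

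Relative to leukocyte and macrophage genes of the same library, Ccr1 and Ccr2 did not overlap between the groups. These ratios reuse the values on which Ccr1 and Ccr2 were chosen and are given as a description. The share of all genes without overlap on such ratios was not computed. Per 1000 of Ptprc, Ccr2 was at 5.05 to 12.9 in sham and 33.1 to 71.7 in I/R libraries, and Ccr1 at 12.9 to 22.4 and 56.2 to 99. Per 1000 of Clec4f, a gene of Kupffer cells, Ccr2 was at 0.805 to 1.67 and 4.06 to 9.35, and Ccr1 at 1.67 to 3.58 and 6.91 to 17.9. A list of 14 genes of recruited monocytes had 11 positive and 3 negative fold changes and a median of 0.51, which was 0.25 without I/R library 1, while the lymphatic list had a median of 0.98. The recruited monocyte list summed to 8626 to 10230 in sham and 15830 to 17560 in I/R libraries. Without Thbs1 and F13a1, left out after their values were seen, the sums were 5531 to 7049 and 6676 to 7436 and overlapped. Of the 14 genes limma called 1 higher and 0 lower, beside 0.0298% of all tested genes, with 5 at an unadjusted p under 0.05. DESeq2 called 3 higher, beside 0.21% of the genes it tested. The gene called by limma was F13a1, encoding a coagulation factor XIII subunit (log2 fold change 2.18, limma adjusted p = 0.0416). edgeR did not call F13a1 (adjusted p = 0.115), and limma called it without sham library 1 (0.0113) but with no other library left out (0.0966 to 0.339). Chil3, encoding a chitinase-like protein of myeloid cells, was at 0 to 25.1 in sham and 115.6 to 230.7 in I/R libraries, and Thbs1, encoding thrombospondin 1, at 1844 to 3562 and 6696 to 8805. In contrast Ly6c2, which marks inflammatory blood monocytes in mouse, was at 0, 21.3 and 31.1 in sham and 35.0, 7.31 and 9.34 in I/R libraries, so its groups overlapped at a low level. Which cells carried Ccr1 and Ccr2 was not tested.

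Cx3cr1, the receptor of Cx3cl1 and a gene of patrolling monocytes and some tissue macrophages, was spread widely. Its normalised counts were 363.4, 284.7 and 181.6 in sham libraries, against 712.1, 314.2 and 167.4 in I/R libraries. Both the highest and the lowest of the 6 values came from I/R libraries, and the log2 fold change was 0.33 (SE 0.46, 95% interval -0.69 to 1.35). Without I/R library 1 it was -0.21. The list of 8 patrolling monocyte genes had 0 called by limma or DESeq2, 1 at an unadjusted p under 0.05 and a median of -0.19, which ran from -0.40 to 0.20 with 1 library left out and was positive only without sham library 2. Cx3cl1 itself was low, at 57.4 to 99.1 in sham and 43.6 to 127.8 in I/R libraries.

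Cxcr4 encodes the receptor of Cxcl12, which holds many leukocytes and progenitors in their niches and is also found on endothelium. It stood at 609.4, 434.4 and 400.3 in sham libraries, against 716.6, 678.2 and 654.0 in I/R libraries. The I/R libraries lay close together and above all sham libraries, although the gap between I/R library 3 and sham library 1 was small. The log2 fold change was 0.53 (SE 0.21, 95% interval 0.06 to 0.99). Per 1000 of Csf1r, the macrophage growth factor receptor gene, Cxcr4 overlapped between the groups, at 12.7 to 20.1 and 19.8 to 40.6. It did not overlap per 1000 of Ptprc, at 60.2 to 69.9 and 91 to 113, and the groups only just separated per 1000 of Clec4f, at 8.01 to 11.2 and 11.2 to 21.8. Its ligand gene Cxcl12 was at 736.6 in sham library 1 and at 179.6 and 295.2 in sham libraries 2 and 3, against 132.4 to 246 in I/R libraries (log2 fold change -0.84, SE 0.46, limma adjusted p = 0.985).

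Cxcr2, the neutrophil receptor for Cxcl1, Cxcl2 and related chemokines, was almost undetected. It had 14 recovered counts in sham library 2, 6 in I/R library 2 and 0 in the other 4 libraries. Sham library 2 and I/R library 2 had the highest totals, at 15650152 and 17086746. Whether Cxcr2 was absent or missed in the shallower libraries was not tested. A floor of 3 counts corresponds to normalised counts of 1.83 to 4.89 in these libraries. The neutrophil genes Ly6g, Retnlg, Ngp and Elane were at 0 in all 6 libraries. Other genes of the 12 in the neutrophil list were detected in every library, with Csf3r, the receptor gene of granulocyte colony-stimulating factor, at 884 to 1235, Ltf, encoding lactoferrin, at 31.1 to 512.7, S100a9 at 15.96 to 86.37 and S100a8 at 9.56 to 35.9. Cxcr1, the neighbouring receptor gene, had a value of 1.33 in sham library 2 and 0 elsewhere. Of 4 tested genes in the neutrophil list 0 were called by limma or DESeq2 and 1 was at an unadjusted p under 0.05, with a median of 0.086. Ligand transcripts were abundant, with Cxcl2 at 14150 to 25940 in sham and 17310 to 19100 in I/R libraries.

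**Figure D2:**
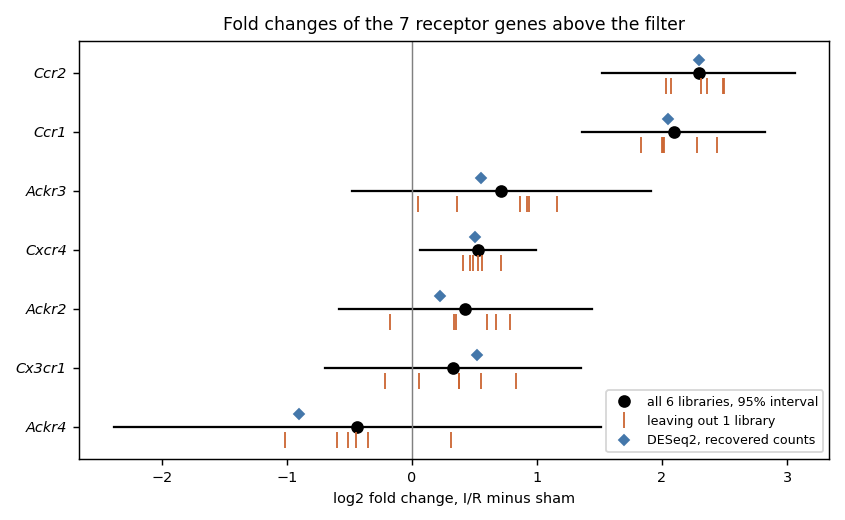
Log2 fold changes (horizontal axis, I/R minus sham, linear) of the 7 receptor genes with a mean of at least 10. Black points and lines give the limma estimate on log2(value + 1) with its 95% interval, orange ticks the estimate with 1 library left out, and blue diamonds the DESeq2 estimate. For Ccr2 and Ccr1 all estimates lay above 1.8, while ticks of Ackr2, Cx3cr1 and Ackr4 fell on both sides of 0.

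Among the atypical receptors, sham library 3 stood apart for Ackr2, Ackr3 and Ackr4. Ackr2, the scavenger of inflammatory CC chemokines, was at 231.4, 270.7 and 70.5 in sham libraries, against 251.0, 174.7 and 246.8 in I/R libraries. Sham library 3 was far below the other 5, at 30% of their mean. The log2 fold change was 0.43 (SE 0.46, 95% interval -0.58 to 1.44), and -0.18 without sham library 3.

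Ackr3 encodes a scavenger of Cxcl12 and Cxcl11 and was at 220.0, 161.0 and 46.6 in sham libraries, against 146.1, 158.3 and 320.0 in I/R libraries. As for Ackr2, sham library 3 was the lowest, at 23.2% of the mean of the other 5 libraries. Its log2 fold change of 0.71 (SE 0.54, 95% interval -0.48 to 1.91) became 0.05 without that library.

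Ackr4 encodes the scavenger of Ccl19, Ccl21 and Ccl25 and ran the other way in sham library 3. Its values were 16.3, 8.65 and 59.7 in sham libraries, against 16.7, 15.2 and 13.2 in I/R libraries. Sham library 3 alone reached 426% of the mean of the other 5 libraries, which otherwise lay close together. The log2 fold change was -0.44 (SE 0.88, 95% interval -2.39 to 1.51), and 0.31 without sham library 3.

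Sham library 3, lowest for Ackr2 and Ackr3, was also lowest for the lymphatic markers. The library with the highest value differed between these markers. I/R library 1 had the highest Prox1 (2177) and Mmrn1 (18100) of all 6, and its Ackr3 value of 146.1 was the lowest after that of sham library 3. I/R library 3 had the highest Ackr3 (320.0) and also the highest Lyve1 (4027) and Pdpn (624.4). In sham library 3 Flt4, the gene of VEGF receptor 3, stood at 25.7% of the mean of the other 5 libraries, Ccl21a, a lymphatic chemokine, at 22.6%, and Reln, which lymphatic endothelium and stellate cells express, at 18.6%. Prox1, the lymphatic transcription factor gene, stood at 53.2%. Clec4f had 49950 in that library, within the range of 32860 to 58480 over all 6. The part of the lymphatic content of the libraries in the values of Ackr2 and Ackr3 was not tested. Il7, the gene whose reporter marked the sorted cells, is 1 of the 12 lymphatic markers counted above. Its values were 29.3, 51.2 and 10.7 in sham and 80.64, 94.98 and 73.96 in I/R libraries, lowest in sham library 3. The lymphatic list had 0 of 12 tested genes called by limma or DESeq2, 6 at an unadjusted p under 0.05 and a median of 0.98, which was 0.43 without sham library 3.

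**Figure D3:**
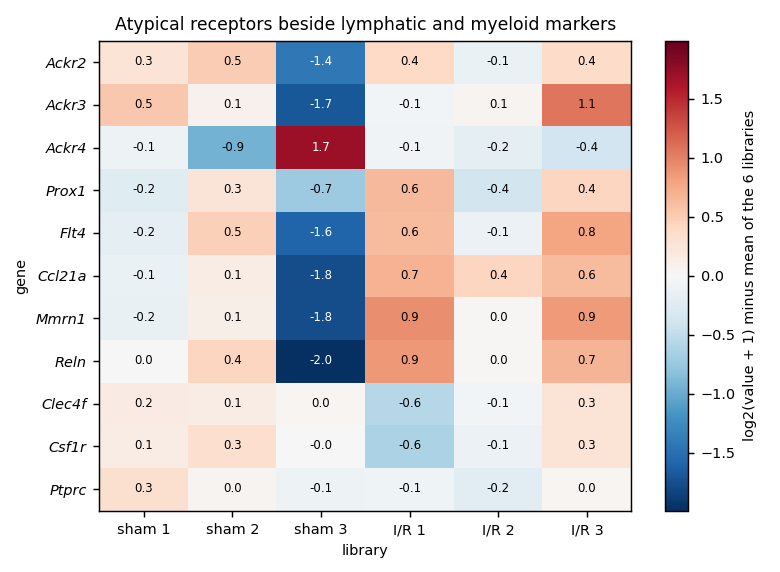
Deviation of log2(value + 1) from the mean of the 6 libraries (colour and number, red above and blue below) for 3 atypical receptor genes, 5 lymphatic genes, and the macrophage and leukocyte genes Clec4f, Csf1r and Ptprc. Columns are libraries. In sham library 3 Ackr2, Ackr3 and the lymphatic genes lay below their means and Ackr4 lay above.

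Ackr1, which binds many inflammatory chemokines on red cells and the endothelium of small veins, was near the limit of detection. It had 9, 8 and 4 recovered counts in sham libraries, against 9, 0 and 10 in I/R libraries. With a mean of 7.71 it was below the filter and was not tested. The list of 9 venous endothelial genes, by comparison, was detected throughout and had 0 called by limma or DESeq2, with 1 at an unadjusted p under 0.05 and a median of 0.47.

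Levels of the receptors were compared after division by exon length. In sham libraries Cxcr4 was the highest at 266.2 normalised counts per kb (221.4 to 337.1), with no overlap with the next gene. Cx3cr1, Ackr2, Ccr1 and Ackr3 followed at 61.4, 61.0, 45.6 and 42.6 per kb, and neighbours in this order overlapped. Ccr2 was at 9.74 per kb (6.51 to 12.4), below all values of Ackr3, and Ackr1, Ackr4 and Cxcr2 closed the order at 5.88, 5.25 and 1.02. In I/R libraries Cxcr4 remained highest at 377.7 per kb, and Ccr1 was the next gene at 186.5 per kb (142.6 to 209.1), its range overlapping that of Cx3cr1 at 37.2 to 158.1. Ccr2 was at 48.0 per kb, within the range of Ackr3 and above all values of Ackr1.

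All 9 genes lie on only 2 mouse chromosomes, 5 on chromosome 9 and 4 on chromosome 1. In GRCm38 the gene body of Ccr2 (ENSMUSG00000049103) spans 124101950 to 124113557 on the plus strand of chromosome 9, and that of Ccr1 (ENSMUSG00000025804) 123962124 to 123968692 on the minus strand, with 133257 bases between them. Ackr4, Cx3cr1 and Ackr2 lie farther away on the same chromosome. On chromosome 1 are Cxcr2, Ackr3, Cxcr4 and Ackr1, in that order of position.

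Ccr1 and Ccr2 sit in a cluster of receptor genes on chromosome 9. The genes of this cluster described here are, in their order along the chromosome, Ccr9, Cxcr6, Xcr1, Ccr1, Ccr1l1, Ccr3 and Ccr2. Ccr3, best known on eosinophils, was at 109.1 to 151.5 in sham and 37.4 to 115.6 in I/R libraries (log2 fold change -0.93, SE 0.44, limma adjusted p = 0.985). Ccr1l1, separated from Ccr1 by 8550 bases, was at 27.5 in sham library 3 and at 4.66 or less in the other 5.

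**Figure D4:**
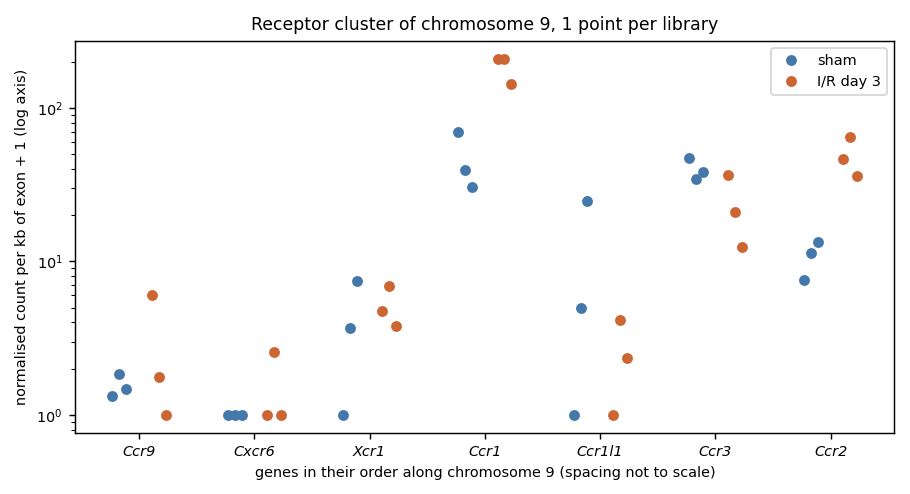
Normalised count per kb of exon plus 1 (vertical axis, logarithmic) of 7 receptor genes in the order in which they lie along chromosome 9, with 3 sham and 3 I/R libraries as points. The groups separate for Ccr1 and Ccr2, whereas the points of Ccr3, which lies between them, overlap.

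Sequence upstream of Ccr1 is shown because Ccr1 was the only member with higher values in all I/R libraries in which a searched motif was found. It is from RefSeq (GRCm38.p6), 250 bases ending at the base before the annotated start, at chr9:123968693-123968942 on the minus strand. Capitals mark GAGGAA, the core letters bound by ETS factors of the PU.1 type, which are active in myeloid cells.
Ccr1: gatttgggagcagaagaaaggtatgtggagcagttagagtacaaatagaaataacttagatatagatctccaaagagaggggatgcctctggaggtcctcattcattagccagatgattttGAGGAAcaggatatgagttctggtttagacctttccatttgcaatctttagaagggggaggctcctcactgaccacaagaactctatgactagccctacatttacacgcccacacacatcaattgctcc

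The same letters, searched on both strands, were also found upstream of Cxcr2, here on the opposite strand as TTCCTC, 81 bases before its start. The window lies at chr1:74153901-74153930 on the plus strand.
Cxcr2: acagcctagccaTTCCTCtataggacacct

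GAGGAA was thus present for 2 of the 9 members and for 23.3% of 32851 RefSeq start windows of that length. The AP-1 letters TGANTCA were found for 0 of 9 and 6.75% of all windows, TTGCNNAA of the C/EBP type for 1 (Ackr3) and 9.56%, and ACGTG, the core of hypoxia-inducible factor sites, for 1 (Ackr4) and 16.6%. A match is a description of letters and not a binding site.

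Among ligand genes of Ccr1 and Ccr2, 3 of 8 were higher in every I/R library, namely Ccl6, Ccl8 and Ccl9, beside 5.11% of all tested genes. Of 8 tested, 0 were called in either direction by limma, beside 0.0298% of all tested genes, and 3 were at an unadjusted p under 0.05. DESeq2 called 2 higher, beside 0.21% of the genes it tested, and the median log2 fold change was 0.29. Ccl9, a Ccr1 ligand of mouse macrophages, was at 1952, 864.7 and 1263 in sham libraries, against 2561, 3655 and 2533 in I/R libraries. Its groups did not overlap (log2 fold change 1.16, SE 0.28, limma adjusted p = 0.597, DESeq2 adjusted p = 0.0495).

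Ccl6, another Ccr1 ligand, was at 6023, 5201 and 7199 in sham libraries, against 8341, 11820 and 10360 in I/R libraries, again without overlap (log2 fold change 0.73, SE 0.20, limma adjusted p = 0.802, DESeq2 adjusted p = 0.0877). Ccl8, whose product acts in mouse mainly on Ccr8, was at 286 to 532.9 in sham and 642.3 to 985.9 in I/R libraries (log2 fold change 1.2, SE 0.27, limma adjusted p = 0.555, DESeq2 adjusted p = 0.0474). Ccr8 itself was at 0 in all 6 libraries.

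The classical Ccr2 ligands overlapped between the groups. Ccl2, the main attractant of monocytes, was at 8847, 4342 and 5385 in sham libraries, against 6442, 7645 and 6058 in I/R libraries (log2 fold change 0.18, SE 0.25, limma adjusted p = 0.985). Ccl7 had a log2 fold change of 0.30 and Ccl12 of 0.28, with the highest sham value of each in sham library 1. That library was also highest of all 6 for Ccl2, Ccl3, Ccl5 and Ccl7. With it left out, the median of the 8 ligand genes was 0.73, and with sham library 2 left out it was 0.070.

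**Figure D5:**
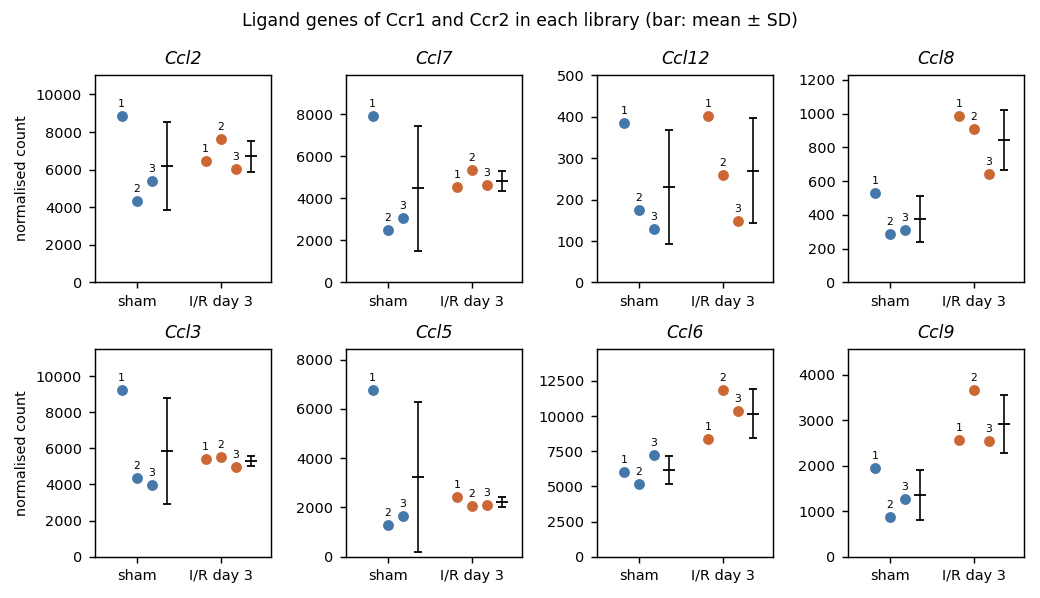
Normalised counts (vertical axes, linear and from 0, a scale of its own for each gene) of 8 ligand genes of Ccr1 and Ccr2 in 3 sham and 3 I/R libraries, 1 numbered point per library with mean and SD. Ccl6, Ccl8 and Ccl9 were higher in all I/R libraries, and Ccl2, Ccl3, Ccl5, Ccl7 and Ccl12 overlapped between the groups.

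Ligand genes of the other receptors gave 0 calls among 10 tested by limma and by DESeq2, with 1 at an unadjusted p under 0.05 and a median of 0.15. Ccl21a, ligand of Ccr7 and Ackr4, was at 5327, 6453 and 1726 in sham libraries, against 9423, 7861 and 9055 in I/R libraries (log2 fold change 1.17, SE 0.40, limma adjusted p = 0.985). No overlap was seen for 1 of the 10, Ccl21a, beside 5.11% of all tested genes with every I/R library higher. Sham library 3 was the lowest for Ccl21a. Reads of near-identical Ccl21 copies could be split between genes, so its level is uncertain.

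Other chemokine receptor genes gave 0 calls among the 9 of 16 that were tested, by limma and by DESeq2, with 0 at an unadjusted p under 0.05 and a median of -0.094. Ccrl2, a receptor that binds the attractant chemerin, was the most abundant at 4914 to 6336 in sham and 4215 to 5924 in I/R libraries. Ccr7, which guides dendritic cells and lymphocytes into lymphatics, was at 270.5 to 541.3 in sham and 214.9 to 331.2 in I/R libraries (log2 fold change -0.66, SE 0.30, limma adjusted p = 0.985). Ccr4 and Ccr8 were at 0 in all 6 libraries.

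The genes of the signalling pathway below these receptors, from G protein subunits to integrin activators, stood close to 0 on the fold change scale. Of 29 tested, 0 were called by limma or DESeq2 and 1 was at an unadjusted p under 0.05, fold changes lay between -0.38 and 0.40, and the median was -0.030. Rap1b, a small GTPase of integrin activation, was the most abundant. Ptk2b, a kinase of chemokine signalling, was lower in every I/R library (log2 fold change -0.38, SE 0.16). Gnai3, an inhibitory G protein subunit gene, was higher in every I/R library (0.40, SE 0.18), and each had a limma adjusted p of 0.985. Thus 1 of the 29 was lower and 1 higher without overlap, beside 4.48% and 5.11% of all tested genes.

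Further marker lists, which bear on the cells that could carry the receptors, had 0 calls by limma. DESeq2 called 1 sinusoidal endothelial gene higher and 0 of the others, beside 0.21% of the genes it tested called higher. At an unadjusted p under 0.05 were 4 sinusoidal endothelial genes, 1 dendritic cell gene and 0 of the others. Medians were -0.24 for 12 tested Kupffer cell genes, 0.078 for 5 dendritic cell genes, 0.26 for 9 sinusoidal endothelial genes, -0.056 for 8 hepatocyte genes and 0.69 for 8 stellate cell and fibroblast genes. The stellate cell median was 0.0095 in edgeR and -0.015 in DESeq2, and 0.15 to 1.43 with 1 library left out. Reln, with the highest log2 fold change of the stellate cell list (1.04), is counted in the lymphatic list too. For the Kupffer cell list, 10 of 12 genes, Clec4f among them, were lowest in I/R library 1, and the median was -0.0057 without that library. Of the lymphocyte and natural killer cell list only Cd79b was tested, at -0.17, and Cd3e and Nkg7 were at 0 in all 6 libraries.

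The genes whose profile over the 6 libraries was nearest to that of a receptor were found among 10836 genes with a mean of at least 50, by the root mean square difference of their centred log2 values. Nearest to Ccr2 were Hpse (0.41), encoding heparanase, Lat2 (0.42), encoding an adaptor of myeloid and B cell receptors, Nxpe5 (0.47), Gda (0.50), encoding guanine deaminase, and Saa2 (0.52), encoding an acute phase protein. Nearest to Ccr1 were Emb (0.21), encoding the adhesion protein embigin, Eps8 (0.23), an actin regulator gene, Chst11 (0.28), encoding a chondroitin sulfotransferase, Osm (0.30), encoding the cytokine oncostatin M, and Myo5a (0.32), a myosin gene. Ccr1 and Ccr2 differed from each other by 0.65, and 18 genes were nearer to Ccr2 than Ccr1 was. Since Ccr1 and Ccr2 were chosen for their difference between the groups, genes like them share that difference by construction.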

How the data were processed

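Libraries were 3 sham and 3 I/R, grouped by their titles. Per the deposited table, values are a signal of normalised counts, and every value is a whole multiple of 1 number per library. Software listed in the submitters' processing notes, with no role stated, is DESeq2 1.22.1, StringTie 1.3.3b, HISAT2 2.1.0 and Trim Galore 0.5.0, and the build is mm10. How genes were counted, and whether by strand, is not given in the sources used here. The lowest positive value of a library was taken as 1 count, which made 100% of values whole within 0.01. These counts may derive from coverage.

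The comparison used limma 3.58.1 in R 4.3.3 on log2(value + 1) with an intensity trend, two-sided, with Benjamini-Hochberg adjustment at 0.05, over 13434 genes with a mean of at least 10. Fold changes are on that scale, which can understate or overstate those of low genes. Chil3, at 0 in sham library 1, had 4.24 in limma and 3.35 in DESeq2, and Ackr4 had -0.44 and -0.90. edgeR 4.0.16 and DESeq2 1.42.0 on recovered counts were alternatives, and all 3 were run on simulated counts. The simulation gave every gene the same dispersion and had no outlying library, so it does not check the calls made in these data. The 16 gene lists and the members were chosen with earlier results of these data known. Of lists of receptors, ligands and signalling the text names called genes, the 2 with the smallest p and the most abundant. Cell marker lists are given by counts and medians, and 1 gene counted in its list is not reported here. Ly6c2, Cx3cl1, Ccl2, Ccl7, Ccl12 and the markers printed for sham library 3 and for I/R libraries 1 and 3 were named after their values were seen. A symbol shared by several identifiers is represented by its most abundant identifier.

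Coordinates and exon lengths come from GENCODE mouse release 21 (GRCm38, the assembly of mm10), which held 21963 of 22027 identifiers when versions were ignored. Of the 50-base words in the transcripts of Ccr2, 1.91% occur in other genes, and of those of Ackr1 20.4% occur in Cadm3, whose exons overlap it on the same strand. Exons of Ackr4 overlap Acad11 and those of Cx3cr1 overlap Gm33858 on the opposite strand. Values of Ackr1 and Ackr4 are therefore uncertain. Floors of 3 counts cover counting error only.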

Additional observations from a re-analysis of the deposited data

How the results depend on the processing

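The labels do not say whether the replicate numbers shared by both groups pair the libraries. Deviations of equally numbered libraries correlated at -0.02, -0.21 and -0.001. Those of unequally numbered libraries correlated at -0.128 to 0.178, so these values cannot decide whether libraries were paired. With the replicate block, 0 genes were called higher over all genes and 0 members. Against 4 genes called higher and 0 lower in limma, counts of higher and lower genes were 1 and 0 with a mean of at least 50, 0 and 0 without the trend, 1 and 0 in edgeR, 35 and 7 in DESeq2, and 0 and 0 without the shallowest library of each group. Leaving out 1 library gave 0 to 20 higher and 0 to 2 lower, with 20 and 2 without sham library 1. Members called numbered 0, but 2 in DESeq2 and 0 to 1 with 1 library left out. The log2 fold change of Ccr1 was 2.04 in DESeq2 and 1.83 to 2.44 with 1 library left out, and that of Ccr2 was 2.29 in DESeq2 and 2.03 to 2.49. With 1 library left out it was -0.21 to 0.83 for Cx3cr1, -0.18 to 0.79 for Ackr2 and -1.02 to 0.31 for Ackr4. In all, 115 of 118 member values kept their sign, and 258 of 272 list medians stayed within the spread between libraries. Of the 14 that moved, 8 were of the recruited monocyte list. Its median was 0.39 in edgeR and in DESeq2, and 0.25 to 0.70 with 1 library left out. With some library left out 8 of 16 medians changed sign, those of both lists of other receptors, signalling, patrolling monocytes, neutrophils, dendritic cells, lymphocytes and hepatocytes. The sum of the recruited monocyte list in I/R was 1.76 times that in sham, and 1.14 times without Thbs1 and F13a1, an alternative chosen after seeing the data. The cause of these changes was not tested. Few counts limit Cxcr2, Ackr1 and Ackr4.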

Other observations

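Receptors for other chemoattractants were not part of the comparisons above. Of 9 tested, 0 were called by limma or DESeq2, 2 were at an unadjusted p under 0.05, and the median log2 fold change was -0.084. C5ar1, the receptor gene of complement C5a, was at 1820, 946.5 and 848.4 in sham libraries, against 1175, 250.2 and 244.5 in I/R libraries (log2 fold change -1.45, SE 0.54, limma adjusted p = 0.985). I/R library 1 lay within the sham range, and the other two I/R libraries lay below it. Ptafr, the receptor gene of platelet-activating factor, was at 1929, 987.8 and 971.5 in sham and 1886 to 1990 in I/R libraries (log2 fold change 0.66, SE 0.25, limma adjusted p = 0.985). C3ar1, the receptor gene of complement C3a, was the most abundant of the list at 1529 to 3068 in sham and 2541 to 2630 in I/R libraries. For Ptafr and C3ar1 sham library 1 stood apart from the other sham libraries, as it did for Ccl2, Ccl5 and Ccl7.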
